A study of Mus musculus with 8 samples.

Results

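The genes described here encode the proteins of the mitochondrial ribosome. They were chosen by symbol: every probe set whose gene symbol in the array's annotation begins with Mrpl or Mrps followed by a digit. This gave 76 genes of the 19494 named on the array, each with 1 probe set, of which 48 carry an Mrpl symbol (large subunit) and 28 an Mrps symbol (small subunit). The rule itself uses no expression value. Mrpl53 and Mrps6 had no match among the named probe sets and were not analysed here.

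Expression was measured on Clariom S arrays in alphaTC1.9 cells, a mouse line of glucagon-producing pancreatic alpha cells, grown in 16 mM glucose. One group of 4 arrays came from control cells and the other from cells with an siRNA knockdown of insulin-degrading enzyme, a zinc metalloprotease (IDE-KD, 4 arrays). The labels name no agent for the control, no time of harvest and no further treatment, call the replicates biological, and do not say whether they were separate cultures, so the p-values speak only to variation among these arrays, part of which may be technical. The question the design puts to these genes is whether their transcripts differ between knockdown and control cells.

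Mitochondria carry their own ribosome, which translates the few proteins encoded by mitochondrial DNA, all of them subunits of oxidative phosphorylation. Its RNA comes from the mitochondrial genome, but its proteins are encoded in the nucleus, made in the cytosol and imported, so that an alpha cell must bring together transcripts from many scattered genes to build one particle. Some of these proteins descend from bacterial ribosomal proteins and others are found only in mitochondria. In alpha cells, mitochondrial metabolism is part of the control of glucagon secretion.

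Some promoter features that the symbol did not use were more frequent among these genes than among all genes on the array. RefSeq promoter windows (GRCm38.p6, 250 bases before to 50 bases after a start site) matched 67 of the 76 genes, with 73 windows. The letters CCGGAAG, the core bound by ETS factors such as GABP (NRF-2), stood on either strand in 25 windows (34.2%), against 11.8% of the 19133 windows of genes on the array and 8.86% of all 32851 windows in the table. The letters GCGCATGCG, the core of the NRF1 element, stood in 7 windows (9.59%), against 2.44% and 1.75%. The letters AAGATGGCG, bound by YY1, stood in 8 (10.96%), against 1.91% and 1.40%. NRF1, GABP and YY1 are known regulators of nuclear genes for mitochondrial proteins.

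The large subunit held 6 of the 7 windows with the NRF1 letters, while the ETS letters stood in 14 of 47 large subunit windows and in 11 of 26 small subunit windows. At least 1 of the 3 motifs was present in 35 windows (47.9%), against 15.2% of windows of genes on the array. Letters of different motifs overlapped at 0 places, and the NRF1 letters overlapped their own reverse complement at 3. Median GC content was 58.3% in the members' windows and 57.0% in those of genes on the array. Promoter windows matched 69 of the 85 subunits of oxidative phosphorylation. Their windows held the NRF1 letters in 10.8%, the ETS letters in 23.0% and the YY1 letters in 9.46%. Windows of cytosolic ribosomal proteins held these letters in 4.84%, 35.5% and 6.45%. At least 1 of the 3 motifs stood in 36.5% of the oxidative phosphorylation windows and in 46.8% of the cytosolic ribosomal protein windows. A share above that of genes on the array is thus not particular to the members. These shares are descriptions of letters, without a test, and windows of one gene can overlap.

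Stretches just before the start site are printed to show these arrangements, 5′ to 3′ on the gene's strand, with matches to the searched letters in capitals. Mrpl32 carries NRF1 letters at 2 places, 1 of them a palindrome read on both strands, Mrpl22 carries ETS and NRF1 letters close together, and Mrpl43 carries the ETS letters at 2 places.
Mrpl32 (chr13:14613038-14613137, minus strand): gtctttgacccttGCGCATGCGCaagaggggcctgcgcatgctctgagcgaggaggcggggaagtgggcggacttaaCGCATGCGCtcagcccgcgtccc
Mrpl22 (chr11:58171564-58171663, plus strand): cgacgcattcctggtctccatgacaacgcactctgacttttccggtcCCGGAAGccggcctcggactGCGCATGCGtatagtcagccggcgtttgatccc
Mrpl43 (chr19:45006443-45006542, minus strand): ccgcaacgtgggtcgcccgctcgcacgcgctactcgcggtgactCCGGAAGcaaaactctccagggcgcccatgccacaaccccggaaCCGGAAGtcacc

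Mrpl52, the member with the widest range between arrays, has the ETS letters on the opposite strand. Mrpl14 is GC-rich and holds none of the searched letters, which says only that these letters are not in this window.
Mrpl52 (chr14:54426809-54426908, plus strand): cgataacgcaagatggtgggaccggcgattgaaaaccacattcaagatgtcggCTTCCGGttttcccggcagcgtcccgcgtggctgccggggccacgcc
Mrpl14 (chr17:45686249-45686348, plus strand): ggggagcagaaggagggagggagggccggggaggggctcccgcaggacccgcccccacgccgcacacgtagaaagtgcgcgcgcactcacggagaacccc

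Many members also lie head to head with a neighbour. Of the 67 matched genes, 26 (38.8%) had a start site of another gene on the opposite strand within 1000 bases upstream, pointing away, against 13.8% of the 15683 matched genes on the array. One such pair joins the subunits: the start sites of Mrps11 and Mrpl46 lie 42 bases apart. The bases between the start sites are printed.
Mrps11 and Mrpl46 (chr7:78783090-78783130, plus strand of Mrps11): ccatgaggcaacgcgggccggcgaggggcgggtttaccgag

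Other neighbours also act in mitochondria. Mrps12 faces Sars2, the mitochondrial seryl-tRNA synthetase gene, Mrpl43 faces Twnk, the mitochondrial DNA helicase gene, and Mrpl47 faces Ndufb5, which encodes a complex I subunit. For 23 members the neighbour was measured on the array, with neighbour differences from -0.10 to 0.09 (IDE-KD minus control, log2), 0 of them at an unadjusted limma p under 0.05. Counting Mrps11 and Mrpl46 once leaves 22 pairs, of which 10 had differences of the same sign.

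**Figure D1:**
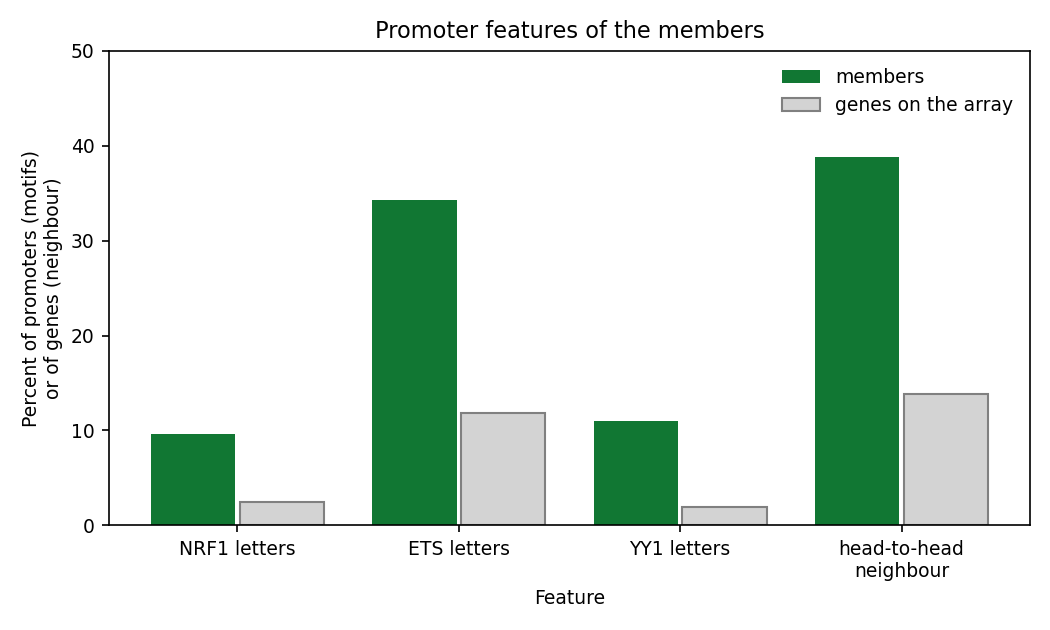
Bars give the percent of promoter windows that hold the NRF1, ETS or YY1 letters and the percent of genes with a head-to-head neighbour within 1000 bases, for the members (green) and for genes on the array (grey). The members' bars are the higher ones throughout, with 34.2% against 11.8% for the ETS letters and 38.8% against 13.8% for a neighbour.

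The arrays carried the identity their labels give. Gcg, the glucagon gene, averaged 12.06 in both groups, and all 5 alpha cell markers analysed lay above the median array control row of 4.52. Of 24 measured markers of other cell types (beta, delta, PP and exocrine cells, fibroblasts, blood and endothelial cells), 18 lay below that row. Ide was lower in each IDE-KD array (7.91 to 8.14) than in each control array (8.48 to 8.72), at -0.62 (SE 0.12). Array medians lay between 5.10 and 5.17, and correlations between arrays from 0.984 to 0.993.

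All 76 members gave a mean log2 signal above that control row, from 4.80 to 8.73, and 36 exceeded the 95th percentile of the intron control rows, 6.87, on all 8 arrays. Signals of different probe sets depend on probe sequence, so that these levels are not set against each other. In such bulk RNA, the level per cell and the share of cells that express a gene cannot be told apart.

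No mitochondrial ribosomal protein gene passed the test between the groups, in either subunit. In limma, adjusted over all 22142 rows, 0 of 76 members passed a threshold of 0.05, as did 0 of all rows (0%). Ide, the gene that was knocked down, was thus also among the rows that did not pass. Every member's adjusted p rounded to 1.00. At an unadjusted limma p under 0.05 there were 0 members, where 4.59% of all rows lay (2.69% higher and 1.91% lower in IDE-KD), and the groups were free of overlap at 0 members, against 2.8% of all rows (1.39% higher and 1.41% lower). Fitted differences (IDE-KD minus control, log2) were below 0 for 23 of 48 large subunit genes and 17 of 28 small subunit genes, against 47.9% of all rows. Their medians were 0.01 and -0.03, beside 0.0074 over all rows. Leaving out a single array put both medians on the same side of 0. Without IDE-KD replicate 1 they were 0.10 and 0.02, and without IDE-KD replicate 2 they were -0.08 and -0.11.

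The intervals of the members' differences were slightly wider at the median than those over all rows. The 95% confidence interval lay inside 1.5-fold in both directions for 70 of 76 members (44 large, 26 small), against 83.6% of all rows, and inside 2-fold for all 76, against 99.7%. The median half-width of the interval was 0.34 for members and 0.32 over all rows. In 49 members the fitted difference was under 0.1 in size.

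**Figure D2:**
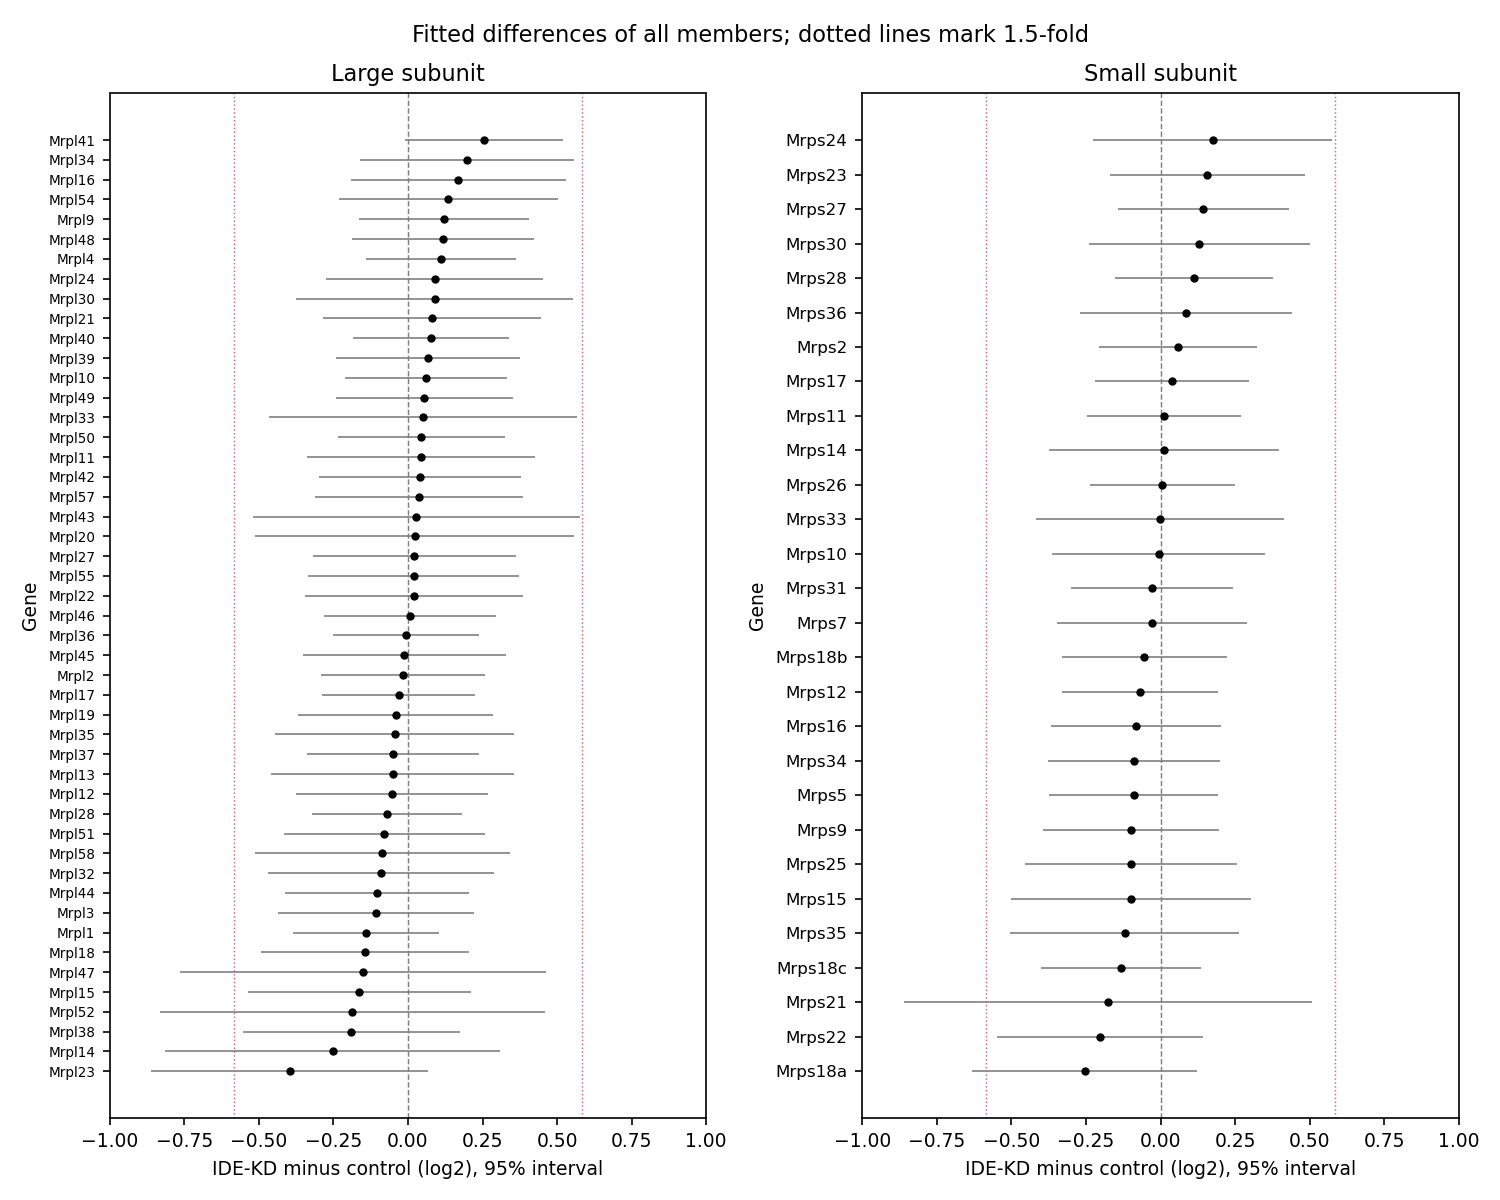
Points give each member's fitted difference (IDE-KD minus control, log2) and bars its 95% confidence interval from limma, large subunit on the left and small on the right, ordered by difference. Every interval includes 0, with fitted values from -0.40 (Mrpl23) to 0.25 (Mrpl41); dotted lines mark 1.5-fold.

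What the arrays did show was a wide spread among the IDE-KD replicates. Relative to each gene's control mean, the large subunit genes averaged -0.29, 0.28, -0.19 and 0.17 on IDE-KD arrays 1, 2, 3 and 4 (log2). The control arrays gave -0.04, 0.13, -0.13 and 0.05. IDE-KD arrays 1 and 3 were thus below all controls and arrays 2 and 4 above all of them, and the control values lay between.

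The small subunit genes were low and high on the same IDE-KD arrays. They averaged -0.22, 0.24, -0.22 and 0.10 on IDE-KD arrays 1 to 4, and between -0.04 and 0.03 on the control arrays. The mean of the IDE-KD arrays was -0.01 ± 0.28 (SD, n = 4) for the large and -0.02 ± 0.23 (SD, n = 4) for the small subunit. In controls, centred at 0, the SD was 0.11 and 0.03 (n = 4).

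Most members took part. On IDE-KD array 1, 43 of 48 large and 23 of 28 small subunit genes were below their control mean, and on array 3 these counts were 38 and 24. On IDE-KD array 2 only 4 and 2 were below it, and on array 4 they were 6 and 8. Array 1 was the lowest IDE-KD array for 45 of 76 members and array 3 for 29, and array 2 was the highest for 58. Over all rows each of these arrays was the lowest in 22.7% to 27.6% and the highest in 23.6% to 26.2%. Over the 12616 rows above the median control row, where all members lie, array 1 was the lowest in 27.9%, array 3 in 32.8%, and array 2 the highest in 33.1%.

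Both arrays 1 and 3 read below both arrays 2 and 4 in 65 of 76 members (85.5%), against 24.2% of all rows and 34.7% of those 12616 rows. The same order of replicate numbers held among controls in 23 of 48 large subunit genes (47.9%) but 5 of 28 small subunit genes (17.9%), against 19.5% of all rows. This arrangement of arrays was picked after the values were seen and is a description. Other gene groups gave similar shares: it held in 83.5% of oxidative phosphorylation subunits and 79.7% of cytosolic ribosomal protein genes.

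Control rows of the arrays were read beside this. On IDE-KD arrays 1 and 3 the exon control rows averaged 6.95 and 6.92, against 7.05 to 7.13 on the other 6 arrays, and the SD over all rows was 2.16 and 2.13, against 2.20 to 2.25. Their intron control rows averaged 4.197 and 4.198, against 4.25 to 4.38. Exon minus intron control rows gave 2.76 and 2.72, inside the control range of 2.71 to 2.79, while IDE-KD arrays 2 and 4 gave 2.85 and 2.84, above every control. The 24 markers of other cell types averaged 0.16 and 0.27 above their control mean on these arrays, 0.01 and 0.05 on IDE-KD arrays 2 and 4, and -0.10 to 0.08 in controls. Their mean levels ran from 3.72 to 3.90 in controls and from 3.83 to 4.09 in IDE-KD arrays. The part of these values in the members' pattern was not tested.

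**Figure D3:**
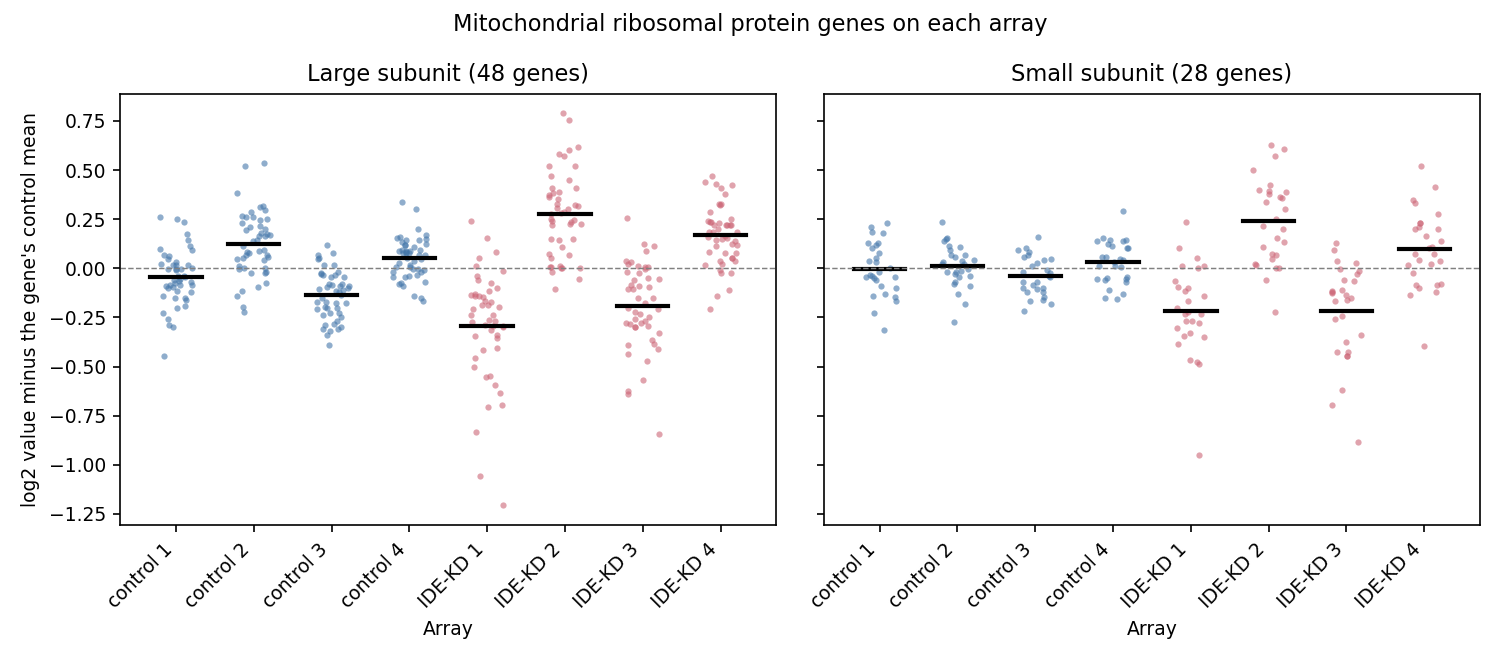
Each point is 1 gene's log2 value on 1 array minus its mean over the 4 control arrays, and black bars are means over the genes. The large subunit means run from -0.29 on IDE-KD array 1 to 0.28 on array 2, and control means lie between -0.13 and 0.13.

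The spread was also seen gene by gene. The SD over replicates was larger in IDE-KD than in control arrays for 60 of 76 members (78.9%), against 61.8% of all rows. This share was 64.8% of the 12616 rows above the median control row. It was 90.6% of oxidative phosphorylation subunits and 76.6% of cytosolic ribosomal protein genes. The median SD was 0.17 in control and 0.30 in IDE-KD arrays for the large subunit and 0.12 and 0.23 for the small, beside 0.17 and 0.21 over all rows. In 43 members the IDE-KD values extended past the control range on both sides, against 30.0% of all rows. The highest and lowest IDE-KD arrays lay over 1 log2 unit apart (2-fold) in 10 members, while 0 members had such a range among controls. The share of all rows with such a range was not counted, so whether this count is unusual is not known.

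**Figure D4:**
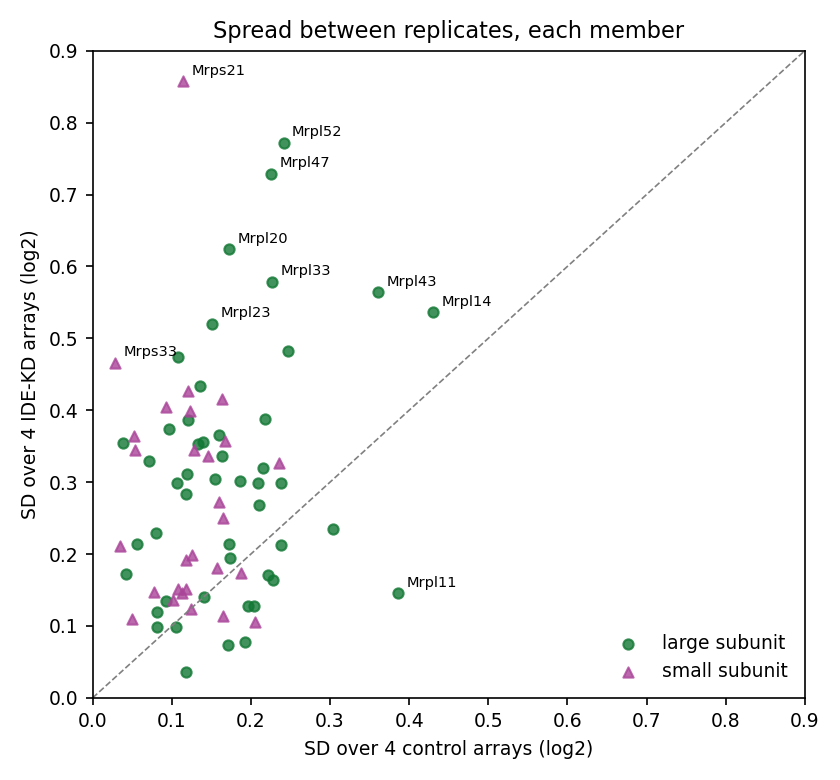
Each point is 1 member, with its SD over the 4 control arrays on the x axis and over the 4 IDE-KD arrays on the y axis (log2); the dashed line marks equal SD. Most points lie above the line, with Mrps21 at 0.86 in IDE-KD against 0.11 in control arrays.

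The widest of these ranges belonged to Mrpl52, a protein of the central protuberance found only in mitochondria. It read 5.21, 5.53, 4.97 and 5.40 on control arrays 1 to 4 and 4.07, 5.88, 4.98 and 5.43 on IDE-KD arrays 1 to 4. IDE-KD array 1 was thus below every control and array 2 above every control, and the fitted difference was -0.19 (SE 0.30). The reading of 4.07 lies below the median control row of 4.52 and the mean intron control row of that array, 4.197, so the width of this range is uncertain. This member and Mrpl20 and Mrps33 below were picked after their values were seen.

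Mrps21, the counterpart of a bacterial small subunit protein, split the IDE-KD arrays into far values. It read 6.99, 7.20, 7.09 and 7.25 in controls and 6.18, 7.74, 6.25 and 7.65 in IDE-KD arrays. The 4 controls sit inside the gap between the low arrays 1 and 3 and the high arrays 2 and 4, and the difference of -0.18 (SE 0.32) was small beside that gap.

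Mrps33, a mitochondria-specific small subunit protein, had nearly equal controls at 7.54, 7.57, 7.59 and 7.60. Its IDE-KD arrays read 7.09, 8.20, 7.41 and 7.59. The means were 7.57 in both groups, with SDs of 0.03 and 0.47 (n = 4).

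Mrpl20, which binds ribosomal RNA early in assembly of the bacterial particle, read 7.61, 7.96, 7.61 and 7.62 in controls. The IDE-KD arrays read 7.06, 8.49, 7.40 and 7.93, again low on 1 and 3. Its fitted difference was 0.02 (SE 0.25).

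Ordered by role, the proteins around the polypeptide exit gave the lowest member of all. Mrpl23, which lines the exit of the tunnel, read 6.46, 6.70, 6.35 and 6.57 in control and 5.46, 6.52, 5.95 and 6.56 in IDE-KD arrays. Arrays 1 and 3 were below every control and arrays 2 and 4 inside the control range. The difference of -0.40 (SE 0.21, 95% confidence interval -0.86 to 0.07; exact permutation test, two-sided p = 0.257) was -0.18 without IDE-KD replicate 1. Of the 8 exit proteins 5 had differences below 0, with a median of -0.02.

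Mrpl47, beside Mrpl23 at the exit, read 5.13, 4.87, 4.58 and 4.93 in control and 4.05, 5.63, 4.24 and 4.99 in IDE-KD arrays, a difference of -0.15 (SE 0.28). Its IDE-KD arrays 1 and 3 also read below the median control row. Mrpl45, which anchors the particle to the inner membrane, read 7.82 ± 0.15 in control and 7.81 ± 0.30 in IDE-KD arrays (SD, n = 4). Neither separated the groups.

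The central protuberance, the crown of the large subunit, had 5 of 9 members above 0 and 4 below, with a median of 0.0067. Mrpl38 differed by -0.19 (SE 0.17), from 7.74 ± 0.14 to 7.55 ± 0.36 (SD, n = 4). Mrpl58 (ICT1), a peptidyl-tRNA hydrolase that became a subunit, read 7.97, 8.04, 7.83 and 8.07 in control and 7.28, 8.30, 7.75 and 8.23 in IDE-KD arrays. Its arrays 1 and 3 were below and 2 and 4 above all controls, with a difference of -0.09 (SE 0.20).

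The stalk recruits translation factors. Mrpl12, the stalk protein proper, read 8.06 ± 0.12 in control and 8.003 ± 0.28 in IDE-KD arrays, and Mrpl10 at its base 7.50 ± 0.14 and 7.56 ± 0.14 (SD, n = 4). The mean over Mrpl10, Mrpl11 and Mrpl12 had an SD of 0.21 over control and 0.15 over IDE-KD arrays (n = 4). Means over the exit (0.12 and 0.30) and the central protuberance (0.09 and 0.32) varied more in IDE-KD arrays. Of the stalk genes, Mrpl11 varied most in controls (SD 0.39, against 0.15 in IDE-KD arrays), while Mrpl12 varied more in IDE-KD arrays. The stalk mean was -0.21 and -0.14 on control arrays 1 and 3 and 0.17 and 0.18 on control arrays 2 and 4.

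Mrpl14, a subunit interface protein on which the assembly factor Malsu1 docks, varied in both groups. It read 6.27, 7.10, 6.17 and 6.72 in control and 6.01, 6.87, 5.72 and 6.65 in IDE-KD arrays. Arrays 2 and 4 were the high ones in either group and the ranges overlapped. The difference was -0.25 (SE 0.26, 95% confidence interval -0.81 to 0.31; exact permutation test, two-sided p = 0.457), and leaving out 1 array gave -0.44 to -0.06.

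The highest fitted difference was that of Mrpl41, a mitochondria-specific large subunit protein. It read 5.46, 5.86, 5.67 and 5.77 in control and 5.84, 5.97, 5.95 and 6.01 in IDE-KD arrays. Only control array 2 and IDE-KD array 1 overlapped. The difference was 0.25 (SE 0.12, 95% confidence interval -0.01 to 0.52; exact permutation test, two-sided p = 0.0571; limma adjusted p = 1.00). It was 0.18 to 0.31 with 1 array left out.

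Mrpl34, a small bacterial-type protein, differed by 0.20 (SE 0.17) and Mrpl16, which lies near the catalytic centre, by 0.17 (SE 0.17). In Mrpl16 IDE-KD arrays 2 and 4 both read 6.17 and arrays 1 and 3 read 5.64 and 5.50, with controls from 5.53 to 5.85. Arrays 2 and 4 were thus above every control, array 1 inside the control range and array 3 just below it.

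**Figure D5:**
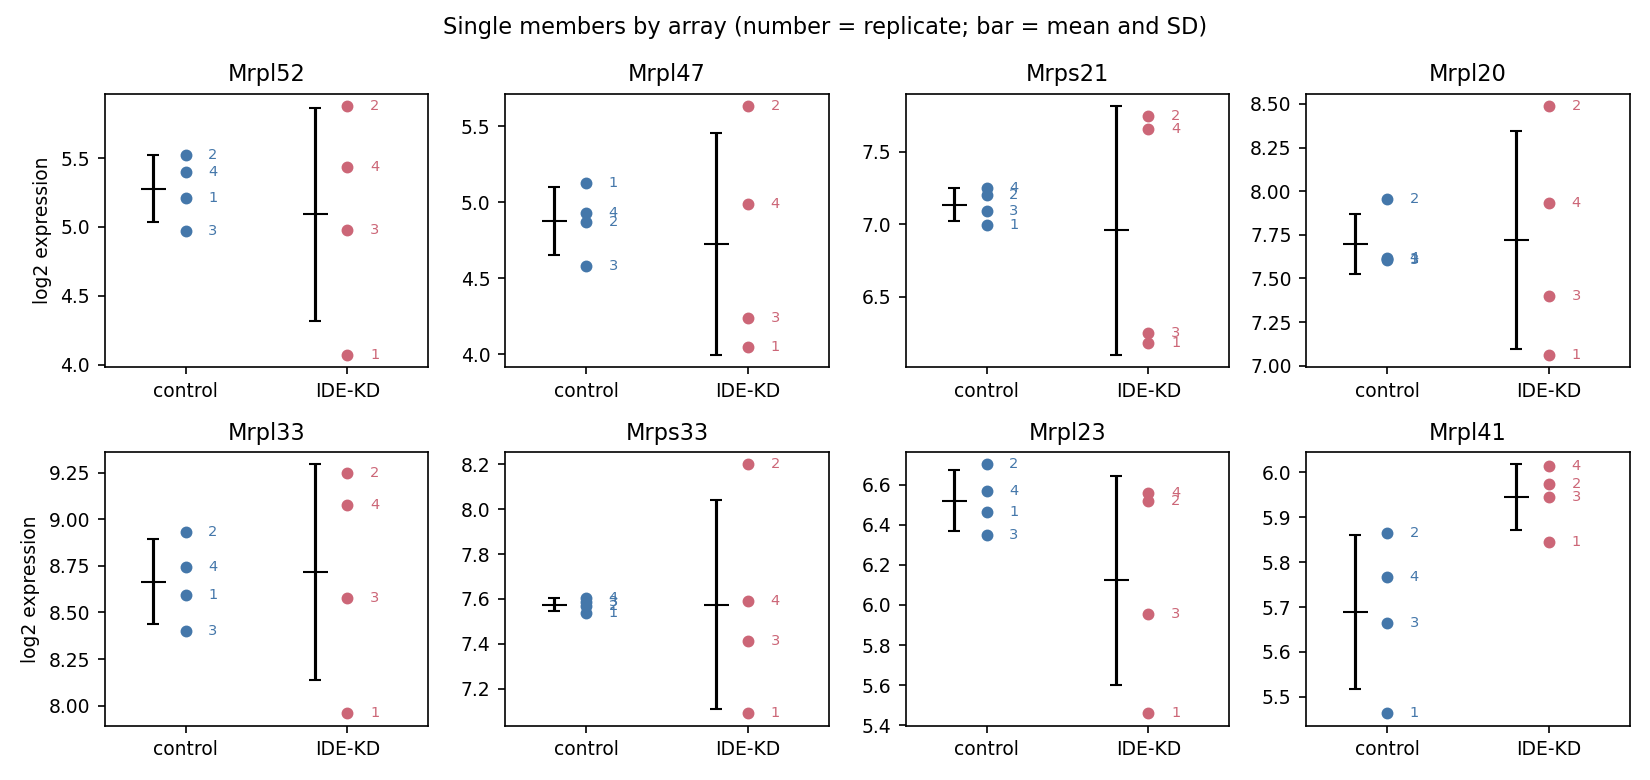
Log2 expression of 8 members on each array, with replicate numbers beside the points and the mean and SD of each group of 4 as a bar; the y axes differ and do not start at 0. In Mrpl52, Mrpl47, Mrps21, Mrpl20 and Mrpl33 arrays 1 and 3 are the lowest IDE-KD values, and in Mrpl41 the groups come nearest to separating.

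Proteins with bacterial counterparts were set beside a list called mitochondria-specific here, which also holds Mrps18a and Mrps18b, relatives of bacterial S18. In the large subunit (with Mrps18a and Mrps30, which structures place there) the medians were -0.01 over 30 bacterial-type and 0.03 over 20 mitochondria-specific genes. In the small subunit they were -0.03 over 15 and -0.04 over 10. On IDE-KD array 1 the means of these 4 groups, in the same order, were -0.28, -0.31, -0.19 and -0.23, and on array 2 they were 0.27, 0.29, 0.20 and 0.26. No difference between these groups was tested.

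Among small subunit genes, Mrps18a had the lowest difference, at -0.25 (SE 0.17, exact two-sided permutation p = 0.286), from 7.37 ± 0.23 to 7.12 ± 0.33 (SD, n = 4). It is 1 of 3 relatives of the bacterial S18 protein, and structures place its product in the large subunit. Its relatives Mrps18b and Mrps18c differed by -0.05 (SE 0.13) and -0.13 (SE 0.12). Mrps18b controls lay within 7.82 to 7.90 while its IDE-KD arrays ran from 7.56 to 8.06.

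Mrps22, a mitochondria-specific protein, read 5.57, 5.63, 5.54 and 5.51 in control and 5.30, 5.86, 5.11 and 5.17 in IDE-KD arrays. Here IDE-KD arrays 1, 3 and 4 lay below all controls and array 2 above them, a pattern that parts from most members on array 4. The difference was -0.20 (SE 0.16), and it was -0.37 without IDE-KD replicate 2.

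On the higher side, Mrps24, which sits where messenger RNA enters, differed by 0.18 (SE 0.19), or 0.38 without IDE-KD replicate 3. Mrps23 differed by 0.16 (SE 0.15) and Mrps27, a member with helical repeats, by 0.14 (SE 0.13). Mrps12, a protein of the decoding centre, read 7.19 ± 0.12 in control and 7.12 ± 0.12 in IDE-KD arrays (SD, n = 4). All of these overlapped between groups.

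The symbol does not always place the product. Mrps30, placed by structures in the large subunit, differed by 0.13 (SE 0.17). Mrps36, whose product is now assigned to the 2-oxoglutarate dehydrogenase complex, differed by 0.08 (SE 0.16).

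A few members were named for a bright or dim probe set, which ranks no transcript. Mrpl51, Mrpl33 and Mrpl42 averaged 8.77, 8.67 and 8.50 in controls and 8.69, 8.72 and 8.55 in IDE-KD arrays. Mrpl36 and Mrpl43 averaged 4.85 and 5.15 in controls and 4.85 and 5.17 in IDE-KD arrays. In the small subunit, Mrps14 and Mrps11 averaged 8.35 and 7.99 in controls and 8.36 and 8.003 in IDE-KD arrays. Group differences of these 7 genes lay between -0.08 and 0.05.

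The divergent pair Mrps11 and Mrpl46 had nearly equal group means and the same order of arrays, a likeness seen after the values were known. Mrps11 read 8.07, 8.01, 7.88 and 7.998 in control and 7.90, 7.93, 7.96 and 8.22 in IDE-KD arrays. Mrpl46 read 5.42, 5.33, 5.23 and 5.32 in control and 5.05, 5.32, 5.34 and 5.61 in IDE-KD arrays. In both genes the IDE-KD arrays rank 1, 2, 3, 4 from low to high and the controls 3, 4, 2, 1, so that IDE-KD array 4 was the highest in place of array 2. With 4 arrays a group, this is given as a description.

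The rest of the mitochondrial translation system also held 0 genes past the adjusted limma threshold in any list. Of the subunits without an Mrp symbol, 4 of 5 were measured, 1 with a difference above 0 and 3 below, with Chchd1 at 0.13 (SE 0.14) and Ptcd3, which receives messenger RNA on the small subunit, at -0.04 (SE 0.13). The 27 assembly and ribosomal RNA modification factors had 15 above 0 and 12 below (median 0.01). Among them the pseudouridine synthase gene Trub2 kept the groups apart, at 6.79 to 6.89 in control and 6.92 to 7.13 in IDE-KD arrays, a difference of 0.19 (SE 0.11), where 1.39% of all rows kept apart in that direction. The methyltransferase gene Mrm2 was at -0.22 (SE 0.16).

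Of 16 measured translation factors 6 were above 0 and 10 below (median -0.02). Gatb, a subunit of the enzyme that makes mitochondrial glutaminyl-tRNA, read 5.13, 5.45, 5.15 and 5.198 in control and 5.51, 5.59, 5.603 and 5.54 in IDE-KD arrays. Every IDE-KD array was above every control, as in 1.39% of all rows, and array 3, low for the ribosomal proteins, was the highest here. The difference was 0.33 (SE 0.12; exact permutation test, two-sided p = 0.0286, the smallest that 4 against 4 arrays allow; limma adjusted p = 1.00). Gatb was named for its small p within this list, so the permutation p is no separate support. Taco1, a translational activator of Cox1, was at -0.20 (SE 0.12).

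Mitochondrial aminoacyl-tRNA synthetases had 7 of 16 measured above 0 (median -0.04), with Wars2 at -0.24 (SE 0.12) and Vars2 at -0.22 (SE 0.12). Wars2 kept the groups apart, at 4.73 to 4.95 in control and 4.36 to 4.71 in IDE-KD arrays, where 1.41% of all rows did so with the IDE-KD arrays lower. The synthetases averaged -0.06, 0.02, -0.10 and 0.02 on IDE-KD arrays 1 to 4, with an SD of 0.06 (n = 4) beside 0.28 for the large subunit. The difference between these spreads was not tested.

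Genes for mitochondrial DNA maintenance, transcription and RNA processing had 10 of 24 above 0 (median -0.02), with Tfam, which packages mitochondrial DNA, at -0.27 (SE 0.16) and Fastkd1 at -0.13 (SE 0.12). Regulators of mitochondrial biogenesis had 3 of 8 above 0 (median -0.05), with Myc at -0.25 (SE 0.18) and Yy1 at -0.14 (SE 0.13). The processing genes averaged -0.23, 0.21, -0.18 and 0.09 on IDE-KD arrays 1 to 4, low and high on the same arrays as the ribosomal proteins. For comparison, the 85 oxidative phosphorylation subunits averaged -0.31, 0.25, -0.14 and 0.11 and the 64 cytosolic ribosomal protein genes -0.30, 0.15, -0.16 and 0.07. Their median differences between groups were -0.0096 and -0.06.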

How the data were processed

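The table the authors deposited holds log2 expression for each of 8 arrays in 29129 rows. RMA, oligo and limma are named, per the submitters' processing notes, with no version or role. In its usual form RMA equalizes the distributions of arrays, which removes global changes, and compresses low signals. Values were used as deposited. For the probe sets' genome build, the sources used here give nothing. Of the rows, 22142 transcript clusters were tested, and 6923 array control rows and 64 unplaced rows were left out. All 76 members matched the mouse gene table by Entrez identifier.

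IDE-KD was compared with control over 8 arrays with limma 3.58.1 (lmFit, eBayes) in R 4.3.3, with p-values adjusted by Benjamini-Hochberg over these 22142 rows and called under 0.05. Single genes were also compared by an exact permutation test. On simulated data with 200 changed rows among 22142, limma called 40.7% of 1.5-fold, 97.4% of 2-fold and 100% of 3-fold changes, and 5.33% of its calls were false. The simulated noise was independent between rows and had the same SD in both groups. On the real arrays the members moved together and varied more in IDE-KD, so these rates may not hold here. The number of arrays limits the precision. Lists are described by counts and medians. Promoter letters were searched by exact match in Python 3.11.15 with pandas 2.3.3. Protein features were not analysed here.

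Named genes were Ide, Gcg, Mrpl14, 10 members picked for their roles, the 3 highest and lowest members by level and by difference in each subunit, members past an unadjusted p of 0.05 or without overlap, and 2 genes of smallest p per list. The members and lists were chosen with earlier results of these data known. Alternatives were other scalings, filters, variance models, a replicate block, subunit assignment by structure and leaving out arrays.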

Additional observations from a re-analysis of the deposited data

Results flagged for a closer look

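In 5 of 152 groups of 4 arrays (76 members, both conditions), 1 array lay far from the other 3 by Dixon's criterion, and chance flags about 1 in 20 groups. On IDE-KD array 3, Mrps5 read 7.27 against a next value of 7.62, Mrps17 read 6.92 against 7.19, and Mrpl36 read 4.79 against 4.86. In control cells, Mrpl20 read 7.96 on array 2, where the nearest other value was 7.62, and Mrpl13 read 6.56 on array 3, where the nearest was 6.82.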

How the results depend on the processing

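The count of rows and of members past the adjusted threshold was 0 under every alternative run. Leaving out 1 array gave medians from -0.08 to 0.10 for the large and from -0.11 to 0.04 for the small subunit, positive without IDE-KD replicate 1 or 3 and negative without IDE-KD replicate 2 or 4. Without 1 control array they lay from -0.04 to 0.06 and from -0.04 to 0.00076. Members below 0 then numbered 13 and 11 without IDE-KD replicate 1, 35 and 21 without replicate 2, and 13 and 11 without replicate 3. An alternative chosen after seeing the data left out IDE-KD arrays 1 and 3 together. The medians were then 0.21 and 0.13, and members below 0 numbered 3 of 48 and 5 of 28. Those arrays are the ones on which the members read lowest, so the choice itself raises these values and they are no test. With array medians subtracted, other scalings or array weights, the large subunit median stayed between -0.00067 and 0.04 and the small between -0.04 and -5.79e-05. Dim-row filters left 48 or 25 large and 28 or 17 small subunit genes, with medians of 0.01 or 0.02 and -0.03. Counting genes by structure gave 0.01 and -0.03. Using 1 value per gene gave 0.01, which is no check of the members, since each has 1 probe set. With the replicate block the medians were 0.01 and -0.03, and 0 rows were called. The labels do not say whether samples of equal number were handled together. Correlations of their deviations were 0.10, 0.13, 0.09 and 0.10 over all rows and -0.10, 0.13, 0.21 and 0.04 over the members. Of 8 arrays, 2 correlated best with their own number. A link by replicate number was not tested beyond this. Under the block Mrpl23 had an unadjusted p of 0.0351 and an adjusted p of 0.847.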
